A study of Mus musculus with 15 samples.

Results

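The 8 genes described here encode enzymes that modify mitochondrial tRNAs and proteins that copy and transcribe mitochondrial DNA: Mto1, Gtpbp3, Trmu, Nsun3, Tfam, Polrmt, Polg and Twnk. They were taken by symbol, and all 8 were found among the 56832 genes of the count table. Their RNA was measured by bulk RNA-sequencing of cultured bone marrow mesenchymal stromal cells (MSCs) of TauT+/+ and TauT-/- mice on the C57BL/6J background, 16 weeks of age. TauT is the taurine transporter encoded by Slc6a6, and its knockout is global, so every cell of the animal carries it. Marrow cells of femurs and tibiae were cultured in a medium with serum and enriched for MSCs by magnetic removal of cells with CD45, Ter119 or CD31, or else by flow sorting, and which of these was used for a given library is not given in the sources used here. Of the 15 libraries, 4 carried the label TauT+/+ and male, 4 TauT-/- and male, 3 TauT+/+ and female, and 4 TauT-/- and female. The 7 TauT+/+ libraries were the controls for the 8 TauT-/- libraries. The labels do not say whether replicates came from separate animals or cultures, so the p-values below measure only the spread between these samples, which may be technical.

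Taurine has a place in the genetic code of mitochondria. In mammalian mitochondria a taurine group is attached to the uridine at the wobble position of 5 tRNAs, the first base of the anticodon, which lets these tRNAs read codons that end in A or G. MTO1 and GTPBP3 act as a complex that builds the taurinomethyl group, with taurine and a folate-bound carbon as substrates, and TRMU adds a sulfur atom to the same base in the tRNAs for lysine, glutamate and glutamine. NSUN3 modifies another wobble base, the cytidine of mitochondrial methionine tRNA, and uses no taurine. TFAM packages mitochondrial DNA and starts its transcription, POLRMT is the mitochondrial RNA polymerase, POLG is the catalytic subunit of the DNA polymerase, and TWNK is the helicase at the replication fork. Only MTO1, GTPBP3 and TRMU of the 8 proteins act on the taurine-modified base, while NSUN3 acts on the wobble base of another tRNA and the other 4 package, transcribe or copy mitochondrial DNA.

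The 6 tRNA genes on which the 4 modification enzymes act are shown first, because they carry the base in question. They were read from the mitochondrial chromosome of the GRCm39 mouse genome, 5′ to 3′, as DNA letters, with the anticodon in capitals, and the first capital letter is the modified wobble base.
mt-Tl1 (leucine, UUR codons), chrM:2676-2750, + strand: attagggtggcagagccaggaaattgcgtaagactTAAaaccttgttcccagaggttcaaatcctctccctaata
mt-Tw (tryptophan), chrM:4950-5016, + strand: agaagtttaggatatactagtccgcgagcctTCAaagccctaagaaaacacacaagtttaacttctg
mt-Tk (lysine), chrM:7700-7764, + strand: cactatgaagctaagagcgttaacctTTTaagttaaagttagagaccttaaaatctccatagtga
mt-Te (glutamate), chrM:14071-14139, - strand: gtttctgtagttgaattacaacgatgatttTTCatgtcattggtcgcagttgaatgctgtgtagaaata
mt-Tq (glutamine), chrM:3772-3842, - strand: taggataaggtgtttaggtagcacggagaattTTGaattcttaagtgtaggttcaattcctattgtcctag
mt-Tm (methionine, the NSUN3 substrate), chrM:3845-3913, + strand: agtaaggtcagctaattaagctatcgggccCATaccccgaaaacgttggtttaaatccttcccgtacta
The wobble base is T in the DNA of the 5 taurine-modified tRNAs and C in that of the methionine tRNA. Its position counted from the 5′ end of the gene is 36 in mt-Tl1, 32 in mt-Tw, 27 in mt-Tk, 31 in mt-Te, 33 in mt-Tq and 31 in mt-Tm.

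These 5 tRNAs read 522 of the 3790 coding codons (13.8%) in the 13 protein-coding genes of the mouse mitochondrial genome, counted in the GRCm39 sequence. The leucine tRNA reads 144 of them, the tryptophan and lysine tRNAs 103 each, the glutamate tRNA 91 and the glutamine tRNA 81. The share was highest in mt-Atp8, a subunit of ATP synthase, at 19 of 67 codons (28.4%), and lowest in mt-Nd4l at 9 of 98 (9.18%). In mt-Nd6, a subunit of Complex I, 37 of 172 codons (21.5%) are read by these tRNAs, and 23 of the 37 are leucine codons. The codon TTG, which pairs with the modified base by wobble, occurs 8 times in mt-Nd6 and 15 times in all 13 genes.

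**Figure D1:**
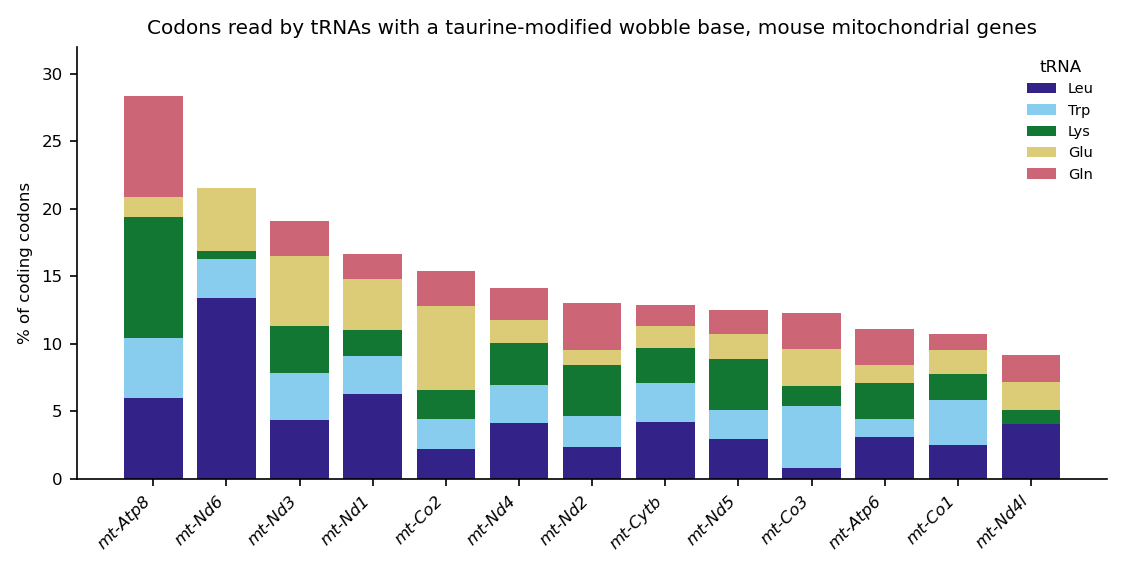
Share of coding codons (%, stacked by tRNA) read by the 5 tRNAs with a taurine-modified wobble base, for each of the 13 protein-coding genes of the mouse mitochondrial genome in GRCm39. The bars run from 28.4% in mt-Atp8 to 9.18% in mt-Nd4l, and the leucine part is the tallest in mt-Nd6.

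Male-labelled libraries held 69764291 to 101575071 counts in total and female-labelled ones 12761107 to 20781070, so sequencing depth and sex label cannot be told apart. Slc6a6 was detected under both labels, at 592 to 2591 CPM (reads per gene relative to library size) in TauT+/+ and 401 to 1521 CPM in TauT-/- libraries (log2 fold change -0.97, edgeR adjusted p = 0.125), and the genotypes overlapped. Libraries are therefore named by their labels throughout. In 3 of the 15 libraries, TauT+/+ male 1, TauT-/- male 1 and TauT+/+ female 3, sex-linked genes disagreed with the label. TauT-/- male 1 and TauT-/- female 1, named by label and replicate, had a spread of log2 ratios of 0.0976 over 9102 genes, and TauT+/+ male 1 and TauT+/+ female 1 had 0.108, while the next closest pair had 0.253. Markers of MSCs summed to 27935 to 47206 CPM in TauT+/+ and 6198 to 40365 CPM in TauT-/- libraries. Most of this sum came from Col1a1, Cxcl12 and Col1a2, with TauT+/+ means of 12883, 12120 and 7173 CPM. Their TauT-/- means were 8043, 4437 and 5840 CPM. Of the 13 MSC markers, 4 had a higher mean in TauT-/- libraries, namely Cd44, Itgb1, Ly6a and Nt5e. All 15 macrophage markers were detected and had a higher mean in TauT-/- libraries, and their sum was 1347 to 9408 CPM (median 7950) against 6461 to 20096 CPM (median 15040). None of these markers was at 0 in all libraries, Ptprc, which encodes CD45, included. Endothelial markers summed to at most 9.86 CPM in TauT+/+ and 37.7 CPM in TauT-/- libraries, and erythroid markers to at most 0.115 CPM.

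The comparison of TauT-/- with TauT+/+ MSCs asked whether the RNA of these 8 genes changes when the cells cannot take up taurine through TauT. None of the 8 genes passed an adjusted p of 0.05, with 0 higher and 0 lower by edgeR's quasi-likelihood test with sex label and genotype in the model. Over all 17204 genes tested, 0.546% were called higher and 0.75% lower. DESeq2 also called 0 of the 8 genes higher and 0 lower, where it called 5.28% of all genes higher and 6.31% lower. At an unadjusted edgeR p under 0.05, Mto1 was higher and none of the 8 was lower, beside 10.6% of all genes higher and 13% lower. The median log2 fold change of the 8 genes was -0.03, with 2 above 0 and 6 below 0, and over all genes tested it was -0.02. The libraries of the genotypes overlapped for each of the 8 genes. The counts of the 8 genes were also 0 and 0 with the mean of the macrophage markers in the model, with the male-labelled or the female-labelled member of both near-identical pairs removed, and without the 3 libraries in which sex-linked genes disagreed with the label. These fits called almost nothing over all genes either, with 0 higher and 0 lower, 2 and 0 or 7 and 0, and 0 and 0, so the counts in them say little about the 8 genes. In bulk samples, fewer cells of a type and less RNA per cell cannot be told apart.

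**Figure D2:**
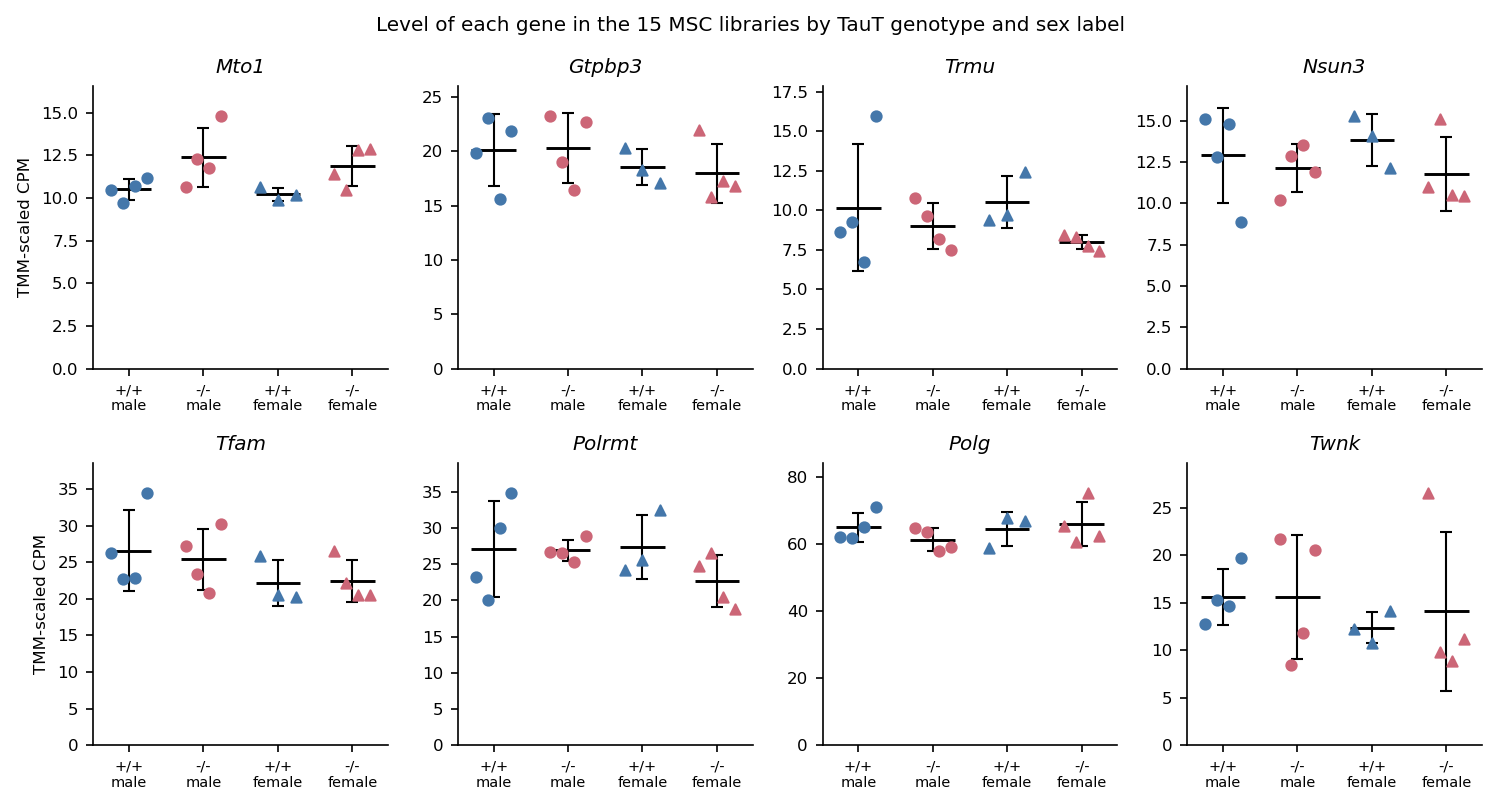
Level of each of the 8 genes (TMM-scaled CPM, linear axis from 0) in each library, with TauT+/+ in blue, TauT-/- in red, male-labelled libraries as circles and female-labelled ones as triangles; the horizontal line is the group mean and the bar ± 1 SD (n = 4, 4, 3 and 4). Over all libraries the genotypes overlap in every panel, and Twnk has the widest scatter.

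Mto1, the flavin-binding partner of the taurine-adding complex (chr9:78355469-78383594, + strand of GRCm39), had the smallest standard deviation of log2 CPM among the modification enzymes. In male-labelled libraries it was at 10.5, 9.72, 10.7 and 11.2 CPM in TauT+/+ replicates 1 to 4 and at 10.7, 12.3, 11.8 and 14.8 CPM in TauT-/- replicates 1 to 4. In female-labelled libraries it was at 10.6, 9.87 and 10.2 CPM in TauT+/+ and at 11.4, 10.5, 12.8 and 12.9 CPM in TauT-/- replicates. The highest 6 values of all belonged to TauT-/- libraries, and 2 TauT-/- libraries lay within the TauT+/+ range. TauT+/+ libraries averaged 10.4 ± 0.505 CPM (SD, n = 7) and TauT-/- libraries 12.1 ± 1.39 CPM (SD, n = 8), which is a difference of 0.23 on the log2 scale (standard error 0.097, 95% confidence interval 0.019 to 0.434). Its unadjusted p was 0.0343 and its adjusted p 0.176 by edgeR, and DESeq2's adjusted p was 0.0577. The interval allows a fold change between 1.01 and 1.35. Within sex labels the log2 fold change was 0.25 under the male and 0.26 under the female label. With the mean of the macrophage markers in the model it was 0.14 (standard error 0.125, edgeR adjusted p = 0.749).

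Gtpbp3, the GTP-binding partner of MTO1 (chr8:71940465-71952228, + strand), differed least. Male-labelled TauT+/+ replicates had 19.9, 23.1, 15.6 and 21.9 CPM and TauT-/- replicates 23.2, 19.0, 16.5 and 22.7 CPM. Female-labelled TauT+/+ replicates had 20.3, 18.3 and 17.1 CPM and TauT-/- replicates 22.0, 15.8, 17.3 and 16.8 CPM. Low and high libraries occurred under both genotypes. The means were 19.5 ± 2.64 CPM (SD, n = 7) and 19.2 ± 3.04 CPM (SD, n = 8), with a log2 fold change of -0.01 with a 95% confidence interval of -0.26 to 0.23 (edgeR adjusted p = 0.962). A fold change under 0.835 or over 1.18 thus lies outside the interval.

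Since MTO1 and GTPBP3 work as a complex, the log2 ratio of their RNAs was also compared, with 0.5 CPM added to each. TauT+/+ libraries had a mean of -0.865 ± 0.208 (SD, n = 7) and TauT-/- libraries of -0.632 ± 0.248 (SD, n = 8), and the ratio was below 0 in all 15 libraries. The difference between genotypes was 0.233 (exact permutation test over 2450 splits within the sex labels, two-sided p = 0.0722). TauT-/- male 1 and TauT-/- female 1, which form a near-identical pair, were the lowest of the TauT-/- libraries, at -1.09 and -0.917. After removal of 1 member of both near-identical pairs, the difference was 0.293 (exact permutation p = 0.0329) when the female-labelled library was kept and 0.267 (exact permutation p = 0.05) when the male-labelled library was kept. The ratio is within a library, so it does not depend on library size, but it does not compare the amounts of both RNAs, whose transcripts differ in length.

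**Figure D3:**
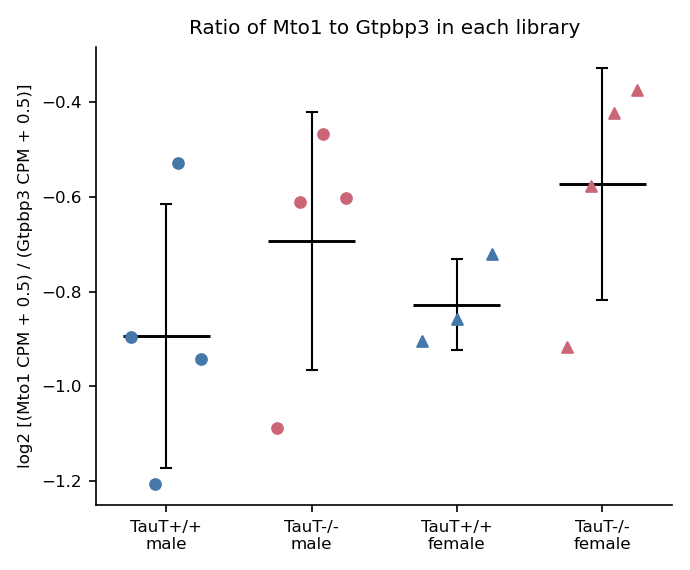
Log2 ratio of Mto1 to Gtpbp3 (CPM, 0.5 added to each) in each library by genotype and sex label, with the group mean and ± 1 SD. All 15 values are below 0, and the lowest TauT-/- value under each sex label (-1.09 and -0.917) is replicate 1.

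Trmu, which encodes the enzyme that adds sulfur to the lysine, glutamate and glutamine tRNAs (chr15:85763485-85783225, + strand), had 8.66, 9.30, 6.75 and 15.96 CPM in male-labelled TauT+/+ and 10.8, 9.64, 8.19 and 7.48 CPM in male-labelled TauT-/- replicates. In female-labelled libraries the TauT+/+ replicates had 9.42, 9.71 and 12.4 CPM and the TauT-/- replicates 8.43, 8.30, 7.78 and 7.45 CPM. The female-labelled groups did not overlap, whereas TauT+/+ male 3 held the lowest and TauT+/+ male 4 the highest value of all 15. How many of all genes show no overlap in the same split of 3 against 4 libraries was not computed, so nothing is drawn from it. The means were 10.3 ± 3.001 CPM (SD, n = 7) and 8.51 ± 1.15 CPM (SD, n = 8), with a log2 fold change of -0.27 with a 95% confidence interval of -0.64 to 0.09 (edgeR adjusted p = 0.341). It was -0.13 without TauT+/+ male 4 and -0.12 with the macrophage markers in the model. Its log2 fold change was -0.16 in male-labelled and -0.36 in female-labelled libraries, and no difference between these was detected (-0.20, 95% confidence interval -0.95 to 0.55, edgeR adjusted p = 1.00).

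Nsun3, the methyltransferase of the methionine tRNA (chr16:62552806-62607181, - strand), had 15.1, 12.8, 14.8 and 8.89 CPM in male-labelled TauT+/+ and 10.2, 12.9, 13.6 and 11.9 CPM in male-labelled TauT-/- replicates. In female-labelled libraries it had 15.3, 14.1 and 12.2 CPM in TauT+/+ and 11.0, 15.1, 10.5 and 10.5 CPM in TauT-/- replicates. The lowest value came from TauT+/+ male 4, the library with the highest Trmu, Tfam and Polrmt. The means were 13.3 ± 2.28 and 11.96 ± 1.76 CPM (SD, n = 7 and 8), a log2 fold change of -0.16 with a 95% confidence interval of -0.45 to 0.14 (edgeR adjusted p = 0.511).

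Tfam, which coats mitochondrial DNA and scales with its copy number in many cells (chr10:71061287-71074110, - strand), had 26.4, 22.7, 22.9 and 34.5 CPM in male-labelled TauT+/+ and 27.2, 23.4, 20.8 and 30.3 CPM in male-labelled TauT-/- replicates. In female-labelled libraries it had 25.9, 20.5 and 20.3 CPM in TauT+/+ and 26.6, 22.1, 20.5 and 20.5 CPM in TauT-/- replicates. Replicate 4 was the highest of its group under both male labels. The log2 fold change was -0.03 with a 95% confidence interval of -0.29 to 0.23 (edgeR adjusted p = 0.907).

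Polrmt, the polymerase that makes every mitochondrial transcript (chr10:79571957-79582420, - strand), had 23.2, 20.1, 30.03 and 34.9 CPM in male-labelled TauT+/+ and 26.7, 26.6, 25.3 and 29.0 CPM in male-labelled TauT-/- replicates. In female-labelled libraries it had 24.2, 25.5 and 32.5 CPM in TauT+/+ and 24.7, 26.6, 20.5 and 18.8 CPM in TauT-/- replicates. The 3 highest values were TauT+/+ libraries and the 2 lowest of all were 1 TauT-/- and 1 TauT+/+ library. Its log2 fold change was -0.13 with a 95% confidence interval of -0.41 to 0.15 (edgeR adjusted p = 0.564), and it was -0.03 without TauT+/+ female 3.

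Polg, the replicative DNA polymerase of mitochondria (chr7:79095974-79116110, - strand), was the most even of the 8 genes. It had 62.3, 61.8, 65.1 and 71.2 CPM in male-labelled TauT+/+ and 64.8, 63.7, 57.8 and 59.0 CPM in male-labelled TauT-/- replicates. In female-labelled libraries it had 58.8, 67.7 and 67.1 CPM in TauT+/+ and 65.5, 60.6, 75.4 and 62.6 CPM in TauT-/- replicates. The highest library exceeded the lowest 1.30 times. The log2 fold change was -0.03 with the narrowest interval of the 8 genes, -0.19 to 0.13, which corresponds to a fold change of 0.876 to 1.09 (edgeR adjusted p = 0.835).

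Twnk, the helicase that unwinds mitochondrial DNA ahead of POLG (chr19:44994102-45001204, + strand), was the most uneven. It had 12.8, 15.3, 14.7 and 19.7 CPM in male-labelled TauT+/+ and 21.7, 8.40, 11.8 and 20.5 CPM in male-labelled TauT-/- replicates. In female-labelled libraries it had 12.2, 10.8 and 14.1 CPM in TauT+/+ and 26.6, 9.79, 8.89 and 11.2 CPM in TauT-/- replicates. The TauT-/- libraries lay at both ends of the range, with TauT-/- male 1, male 4 and female 1 above every TauT+/+ library and 3 others below every TauT+/+ library. The means were 14.2 ± 2.86 CPM (SD, n = 7) and 14.9 ± 6.996 CPM (SD, n = 8), with a log2 fold change of 0.09 with a 95% confidence interval of -0.47 to 0.64 (edgeR adjusted p = 0.871). It was -0.05 and -0.09 with the female-labelled or the male-labelled library of each near-identical pair kept, and 0.38 with the macrophage markers in the model. Twnk shares 1570 bases of its locus with Mrpl43, a gene of the mitochondrial ribosome on the opposite strand that had 27760 counts over the 15 libraries. The authors counted by strand, but whether the library kit keeps the strand is not given in the sources used here, so part of the counts of either gene may belong to the other. The same holds for Polg with Fanci (4054 bases) and for Gtpbp3 with Plvap (3555 bases). These partners had fewer counts over the 15 libraries than Mrpl43, 3003 for Fanci and 173 for Plvap.

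**Figure D4:**
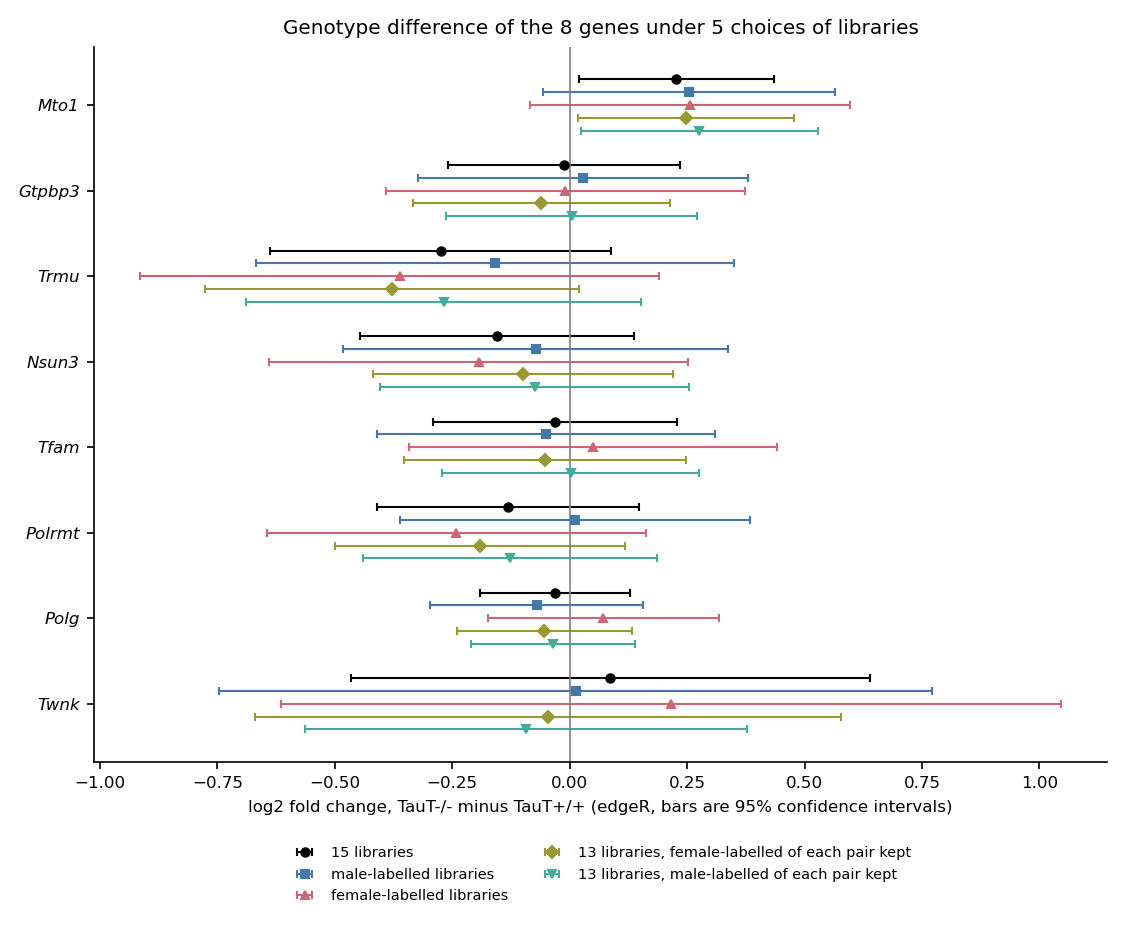
Log2 fold change of TauT-/- against TauT+/+ libraries (edgeR, points) with 95% confidence intervals (bars) for the 8 genes, in the fit of all 15 libraries, by sex label, and after removal of 1 member of both near-identical pairs. The interval of Polg in all 15 libraries is the narrowest (-0.19 to 0.13) and that of Twnk the widest (-0.47 to 0.64), and only the intervals of Mto1 exclude 0, in the fits of 15 and 13 libraries.

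The genotype difference did not differ detectably between the sex labels for any of the 8 genes. By edgeR's test of the difference, 0 of the 8 genes had an adjusted p under 0.05, beside 0% of all 18263 genes tested in that fit. At an unadjusted p under 0.05 it was 0 of the 8, beside 1.62% of all genes, and DESeq2 also gave 0 of the 8 at an adjusted p under 0.05. The largest difference in size, female-labelled minus male-labelled, was -0.25 for Polrmt (95% confidence interval -0.80 to 0.30). Each near-identical pair has a member under either sex label, so the sides of this comparison are not independent. The comparison was not repeated without these libraries or those whose sex-linked genes disagreed with the label.

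The 8 genes differed in how much they varied, whatever the genotype. The standard deviation of log2 CPM over the 15 libraries was 0.105 for Polg, and 0.464% of the 8833 genes with a mean of 5 to 100 CPM had a smaller one. It was 0.166 for Mto1 (7.94% of those genes had a smaller one) and 0.206 for Gtpbp3 (18.4%). Tfam (0.232), Nsun3 (0.244), Polrmt (0.248) and Trmu (0.315) were also below the median of those genes, 0.328. Twnk stood above it at 0.493, and 69.0% of those genes varied less. The 2 near-identical pairs count among these 15 libraries. The 8833 genes were not matched by level to each of the 8. In any library the lowest count was 885 for Polg and 112 for Trmu, and the part of counting error in this order was not tested. For 6 of the 8 genes, all but Trmu and Twnk, the 95% confidence interval of the genotype difference lay within 0.5 on the log2 scale on either side of 0, a bound chosen after the values were seen. The same was true of 26.4% of all genes tested and of 41.7% of the genes with a mean of 5 to 100 CPM.

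Levels between genes were compared only per length, as CPM per kilobase of the canonical transcript, averaged over all 15 libraries. Polg was the highest at 8.19 ± 0.609 (SD), followed by Polrmt at 6.89 ± 1.18, Trmu at 6.04 ± 1.501, Gtpbp3 at 5.95 ± 0.851, Tfam at 5.82 ± 0.999, Twnk at 4.10 ± 1.49, Nsun3 at 3.30 ± 0.542 and Mto1 at 2.50 ± 0.303. Polg exceeded Polrmt in 12 of 15 libraries, Tfam exceeded Twnk in 14, and Nsun3 exceeded Mto1 in 11. The mean log2 ratio was smaller than its SD for Trmu over Gtpbp3 (0.00039 ± 0.305) and Gtpbp3 over Tfam (0.0364 ± 0.164). The same was true of Twnk over Nsun3 (0.251 ± 0.638) and Polrmt over Trmu (0.204 ± 0.279). In these pairs the first gene was the higher in 6, 10, 8 and 13 of 15 libraries, in that order. Of the proteins of the taurine-modified base, Mto1 thus had the lowest RNA level per length.

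Correlations of the 8 genes across libraries were computed for all 28 pairs, as a description of these samples. No pair passed an adjusted p of 0.05, and 5 had an unadjusted p under 0.05, of which 4 had a positive r. Gtpbp3 and Tfam had the highest Pearson r of log2 CPM over the 15 libraries, 0.728 (permutation p = 0.00202, adjusted p = 0.0566 over the 28 pairs; Spearman's rho 0.675, permutation p = 0.00754, adjusted p = 0.148). It was 0.830 without the 2 libraries farthest from the median of Gtpbp3, and 0.615 in male-labelled and 0.825 in female-labelled libraries. Tfam with Twnk had an r of 0.677 (permutation p = 0.00552, adjusted p = 0.0646; rho 0.632, permutation p = 0.0141, adjusted p = 0.148). Its r was 0.600 without the 2 farthest libraries, 0.666 in male-labelled and 0.668 in female-labelled libraries. Gtpbp3 with Twnk had an r of 0.677 (permutation p = 0.00692, adjusted p = 0.0646; rho 0.621, permutation p = 0.0159, adjusted p = 0.148). Its r was 0.638 without the 2 farthest libraries, 0.585 in male-labelled and 0.763 in female-labelled libraries. Nsun3 and Polg moved in opposite directions with an r of -0.560 (permutation p = 0.0286, adjusted p = 0.200; rho -0.496, permutation p = 0.0612, adjusted p = 0.343), which was -0.454 without the 2 farthest libraries, -0.587 in male-labelled and -0.597 in female-labelled libraries. Trmu with Polrmt had an r of 0.532 (permutation p = 0.0410, adjusted p = 0.2297; rho 0.371, permutation p = 0.173, adjusted p = 0.489), which rests on the 2 farthest libraries, since it was -0.0186 without them. It was 0.344 in male-labelled and 0.879 in female-labelled libraries. Mto1 and Gtpbp3, the partners in the complex, had an r of 0.0333. The points share libraries that form near-identical pairs, and after removal of 1 member of both pairs the r of Gtpbp3 and Tfam was 0.711 or 0.712.

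Outside the 8 genes, the 3 patterns most like Mto1 by Pearson r over the 15 libraries, among 13199 tested genes with a mean of at least 1 CPM, were those of Mid1ip1 (0.921), Ceacam2 (0.909) and Slc25a39 (0.907), the last a mitochondrial carrier. Ceacam2 was near the floor in TauT+/+ libraries, with a mean of 0.121 CPM against 1.84 CPM in TauT-/- libraries, and passed the minimum of 1 CPM through the latter. For Gtpbp3 they were Dclre1a (0.960), 2610002M06Rik (0.959) and Nicn1 (0.943), and for Trmu they included Stk19 (0.905) and Hdgfl2 (0.905).

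The choice of the 8 genes did not use their promoter sequences. In the RefSeq promoter windows of GRCm38.p6, which run from 250 bases before to 50 bases after a gene's start and which matched all 8 genes, the letters CCGGAAG or their reverse complement, the core bound by ETS factors such as GABP, occurred in 6 of 8 genes. Among the 11872 tested genes with a window, 18.3% held them. Mto1 and Gtpbp3, the partners of the taurine-adding complex, held none in these windows. The match began within 60 bases before the start in 4 of the 8 genes, Polg, Nsun3, Polrmt and Tfam, and in 7.61% of the tested genes. The 30 bases around these 4 matches and the nearer of both in Twnk are printed, 5′ to 3′ on the strand of the gene, with the match in capitals, to show the bases beside it. The distances of the first 4 are alike by their choice, and the other match of Twnk began 110 bases before the start. Twnk had a window at chr19:45005413-45005712 without these letters and another at chr19:45006308-45006607 that held both matches. Its distances are counted from the start in the latter window.
Polg, chr7:79466293-79466322, - strand, 38 bases before the start: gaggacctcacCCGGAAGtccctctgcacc
Polrmt, chr10:79746606-79746635, - strand, 43 bases before the start: ccctaagagcgCTTCCGGcagtcgcagaac
Nsun3, chr16:62786743-62786772, - strand, 45 bases before the start: cctcgcaggacCCGGAAGtatggcgtttct
Tfam, chr10:71238073-71238102, - strand, 47 bases before the start: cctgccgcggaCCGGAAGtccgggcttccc
Twnk, chr19:45006481-45006510, + strand, 66 bases before the start: ggagagttttgCTTCCGGagtcaccgcgag
The match of Trmu began at the fourth base of the transcript. The letters GCGCANGCG on either strand, the core of the NRF1 motif, occurred in the window of Polrmt alone of the 8 genes. They occurred in 7.03% of all 27025 genes with a window, tested or not. In that wider set CCGGAAG occurred in 9.93%, so the NRF1 share is not on the same footing as the 18.3% above. A match says only that the letters are there.

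The other genes of these pathways were followed through 7 lists of nuclear genes, 113 genes in all, of which 112 were tested. By edgeR, 0 were called higher and 0 lower. At an unadjusted p under 0.05, 15 (13.4%) were higher and 7 (6.25%) lower, and DESeq2 called 8 (7.14%) higher and 5 (4.46%) lower. The median log2 fold change of the 112 genes was 0.03. Shares of all genes were 10.6% and 13% at an unadjusted p under 0.05 and 5.28% and 6.31% by DESeq2.

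Of 20 further enzymes that process or modify mitochondrial tRNAs, 13 had a log2 fold change above 0 and 7 below, with a median of 0.05. The lowest p in this list was that of Osgepl1, which makes the threonylcarbamoyl mark beside the anticodon, at 8.62 ± 2.82 CPM (SD, n = 7 TauT+/+ libraries) against 5.24 ± 1.18 CPM (SD, n = 8 TauT-/- libraries) (log2 fold change -0.72, edgeR adjusted p = 0.0909, DESeq2 adjusted p = 0.0297). DESeq2 also called Trmt10c, a subunit of the mitochondrial tRNA-processing enzyme RNase P, higher (log2 fold change 0.41, adjusted p = 0.0313), which was named after its values were seen. Of 10 genes that supply the folate-bound carbon and the sulfur for the modified base, 6 were above 0 and 4 below, with a median of 0.07. Mthfd1l, an enzyme of mitochondrial folate metabolism, had the lowest p, at 49.0 ± 28.9 and 88.8 ± 35.9 CPM (log2 fold change 0.89, edgeR adjusted p = 0.138, DESeq2 adjusted p = 0.0626). Shmt2, which loads the carbon onto folate, was at 96.5 ± 65.0 and 102 ± 38.7 CPM (edgeR adjusted p = 0.764), and Nfs1, the cysteine desulfurase that provides sulfur to TRMU, at 28.1 ± 3.19 and 24.5 ± 3.43 CPM (edgeR adjusted p = 0.247), both named after their values were seen.

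Of 24 further genes of mitochondrial DNA transcription, replication and nucleotide supply, 9 were above 0 and 15 below, with a median of -0.07. Rrm2b, a subunit of ribonucleotide reductase, had the lowest p, at 22.7 ± 4.43 and 17.2 ± 2.37 CPM (log2 fold change -0.40, edgeR adjusted p = 0.103, DESeq2 adjusted p = 0.0570). DESeq2 called Mterf2 (-0.90, adjusted p = 0.0369) and Mterf4 (-0.33, adjusted p = 0.0348) lower and the topoisomerase gene Top3a (0.24, adjusted p = 0.0224) higher, all named after their values were seen. Of 16 genes that stabilise, polyadenylate or degrade mitochondrial RNA, 10 were above 0 and 6 below, with a median of 0.05, and Fastkd3 had the lowest p at 12.9 ± 2.62 and 18.7 ± 3.73 CPM (log2 fold change 0.53, edgeR adjusted p = 0.0824, DESeq2 adjusted p = 0.0186). Of 22 genes that charge mitochondrial tRNAs with amino acids, 7 were above 0 and 15 below, with a median of -0.11. Gatb, a subunit of the enzyme that makes glutaminyl-tRNA in mitochondria and so loads the TRMU substrate mt-Tq, had the lowest p of the list at 54.7 ± 41.0 and 13.5 ± 7.08 CPM (log2 fold change -2.01, edgeR adjusted p = 0.0623, DESeq2 adjusted p = 0.00371). Among 12 enzymes of the corresponding wobble modification in cytosolic tRNAs, 7 were above 0 and 5 below, and Nsun2, a methyltransferase of cytosolic and mitochondrial tRNAs, had the lowest p at 83.6 ± 17.7 and 113 ± 19.0 CPM (log2 fold change 0.44, edgeR adjusted p = 0.102, DESeq2 adjusted p = 0.0423).

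The list with the largest median was that of 9 regulators of mitochondrial biogenesis, of which 8 were tested, and 7 of these were above 0, with a median log2 fold change of 0.39. By edgeR 0 were called, where 0.546% of all genes were called higher. At an unadjusted edgeR p under 0.05, 5 (62.5%) were higher, beside 10.6% of all genes. DESeq2 called 4 (50%) higher, beside 5.28% of all genes. Yy1 had the lowest p, at 95.3 ± 11.5 and 123 ± 17.4 CPM (log2 fold change 0.38, edgeR adjusted p = 0.0770, DESeq2 adjusted p = 0.0150). DESeq2 also called Pprc1 (0.67, adjusted p = 0.0302), Esrra (0.40, adjusted p = 0.0308) and Ppargc1b (0.91, adjusted p = 0.0427), which code for coactivators and a nuclear receptor of this programme and were named after their values were seen. Ppargc1b was low, at 0.866 ± 0.186 and 1.68 ± 0.839 CPM. Gabpa, the ETS subunit of GABP, was at 59.8 ± 8.42 and 59.4 ± 6.01 CPM (log2 fold change -0.00, edgeR adjusted p = 0.992), and Nrf1 at 20.3 ± 1.74 and 23.1 ± 2.25 CPM (log2 fold change 0.18, edgeR adjusted p = 0.238). The sum of the macrophage markers given above was also higher in TauT-/- libraries, and the part of these cells in the differences was not tested.

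**Figure D5:**
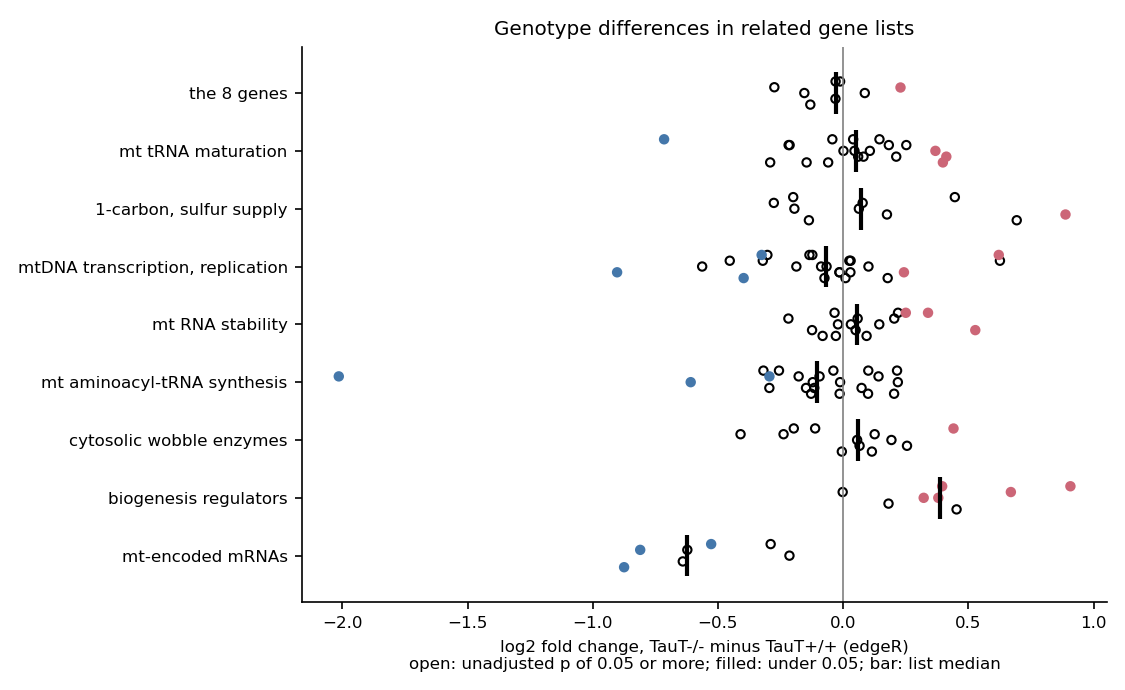
Log2 fold change of TauT-/- against TauT+/+ libraries (edgeR) for each tested gene of the 8 genes, the 7 lists of nuclear genes and the mitochondrially encoded mRNAs, with the list median as a black bar; filled points had an unadjusted p under 0.05 and none passed after adjustment. The median was 0.39 for the biogenesis regulators and -0.62 for the mitochondrially encoded mRNAs, while the 8 genes had -0.03.

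The tRNAs themselves were hardly covered in these libraries, whose cDNA was primed with oligo-dT. Over all 15 libraries mt-Tw had 1319 counts, mt-Tq 141, mt-Tm 77, mt-Tl1 24, mt-Te 24 and mt-Tk 0. By counting error alone, a count of 0 allows up to 0.00369 CPM over the pooled libraries (3 counts). The gene mt-Tk lies between mt-Co2 and mt-Atp8, which also had 0 counts, so this value is no bound on its RNA level. The reason for these zeros was not tested. mt-Tw and mt-Tq passed the filter on low counts. mt-Tw was at 2.03 ± 1.54 CPM (SD, n = 7 TauT+/+ libraries) against 1.27 ± 0.549 CPM (SD, n = 8 TauT-/- libraries) (log2 fold change -0.67, edgeR adjusted p = 0.370), and mt-Tq at 0.182 ± 0.0887 and 0.201 ± 0.167 CPM (log2 fold change 0.06, edgeR adjusted p = 0.960). Read counts do not measure the modification itself. Of the 13 mitochondrial mRNAs, mt-Co2, mt-Co3, mt-Atp8 and mt-Nd4l had 0 counts in all 15 libraries, mt-Atp6 had 1 and mt-Nd3 62, so the mRNA with the highest share of taurine-dependent codons, mt-Atp8, could not be assessed.

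For the 7 mitochondrial mRNAs that could be tested, the genotype difference is given beside the codon share. mt-Nd6 (21.5% of codons) was at 21.9 ± 7.30 CPM in TauT+/+ and 14.3 ± 6.73 CPM in TauT-/- libraries, a log2 fold change of -0.62 (edgeR adjusted p = 0.237). mt-Nd1 (16.7%) had a log2 fold change of -0.21, mt-Nd4 (14.2%) of -0.87, mt-Nd2 (13.04%) of -0.64, mt-Cytb (12.9%) of -0.81, mt-Nd5 (12.5%) of -0.53 and mt-Co1 (10.7%) of -0.29. mt-Nd4 had the lowest p, with an adjusted p of 0.0976 by edgeR and 0.0333 by DESeq2. The paper reports lower mt-Cytb in TauT-/- MSCs from its RNA-sequencing data. For mt-Cytb the adjusted p here was 0.151 by edgeR and 0.0835 by DESeq2. The ribosomal RNAs mt-Rnr1 and mt-Rnr2, which are transcribed by the same polymerase, had log2 fold changes of -0.04 and 0.02 (edgeR adjusted p = 0.964 and 0.986). Among these 7, mt-Nd6 had the highest codon share and mt-Nd4 the largest fitted difference. TauT+/+ male 4 and TauT+/+ female 3 were the 2 highest libraries for each of the 7 mRNAs but mt-Nd6, and for mt-Tw. For mt-Nd4 they had 2111 and 2588 CPM, and the next highest library, TauT+/+ male 2, had 1121 CPM. For Polrmt and Trmu, TauT+/+ male 4 was the highest library and TauT+/+ female 3 the second highest.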

How the data were processed

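Bulk RNA-sequencing of MSCs was analysed from 1 table of the whole series. The deposited values are whole-number counts of reads per gene, not normalized, for 56832 genes in 15 libraries, and 0 columns were left without a sample. According to the methods and the labels, the authors amplified full-length cDNA from 1 ng of RNA with oligo-dT priming, sequenced paired reads of 150 nt, trimmed them with fastp 0.23.1, mapped them with STAR 2.7.9a to GRCm39 with GENCODE release 31 of the mouse annotation and counted them with featureCounts of Subread 2.0.1 with a strand setting. Multi-mapped reads and reads on overlapping genes can be lost or moved by such counting.

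The tests were run with edgeR 4.0.16 under R 4.3.3 (filterByExpr, TMM normalization, quasi-likelihood test, sex label and genotype in the model, as in the study's own model), which left 17204 genes, with Benjamini-Hochberg adjustment over all of them and a threshold of 0.05. Confidence intervals of log2 fold changes come from the same fit. The difference between sex labels was tested in a fit with 1 term per group. CPM are TMM-scaled. DESeq2 1.42.0 was an alternative. A gene without a DESeq2 adjusted p was not counted. The ratio of Mto1 to Gtpbp3 was tested by exact permutation within sex labels, two-sided, and correlations between the 8 genes by 100000 permutations over libraries, two-sided, with Python 3.11.15 and SciPy 1.17.1. Gene positions, canonical transcript lengths and mitochondrial sequences come from GRCm39 with GENCODE release 39, a later annotation than the authors', which matched 95.6% of the tested genes by symbol. Promoter windows are RefSeq's. The scripts were tested on simulated data.

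The 8 genes and the 7 related lists were chosen with earlier results of these data known, so they are described by counts and medians beside all genes, with no set test. The genes named are the 8 genes, Slc6a6, each listed mitochondrial tRNA, from each list the gene of the lowest p where none passed, and the 3 genes most like Mto1, Gtpbp3 and Trmu, of which 1 is not reported here. Others are marked in the text or complete a list.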

Additional observations from a re-analysis of the deposited data

Results flagged for a closer look

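Among 27 groups of 4 libraries, 9 measures in each of 3 groups, 2 held a library whose gap to its nearest neighbour took up more of the group's range than Dixon's 95% critical value for 4 samples, where chance gives about 1.35. The library labelled TauT-/- female 2 was high for Nsun3 at 15.1 CPM (gap over range 0.887), and its group otherwise lay between 10.5 and 11.0 CPM. The library labelled TauT-/- female 1 was high for Twnk at 26.6 CPM (gap over range 0.869), and its group otherwise lay between 8.89 and 11.2 CPM. Its near-identical partner, labelled TauT-/- male 1, had 21.7 CPM of Twnk, so these values are not independent. The group of 3 TauT+/+ female-labelled libraries was not tested in this way.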

How the results depend on the processing

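None of the 8 genes was called under any alternative, which were DESeq2, RLE normalization, no sex term, no filter, the replicate block, each sex label alone, the macrophage covariate, 13 or 12 libraries and leaving out each library in turn. The log2 fold changes of Mto1, Trmu and Nsun3 kept their sign in all of these, at 0.144 to 0.291 for Mto1, -0.381 to -0.123 for Trmu and -0.287 to -0.0744 for Nsun3, with a lowest adjusted p of 0.0577. The macrophage covariate gave 0.144 for Mto1, -0.123 for Trmu, -0.287 for Nsun3, -0.223 for Polrmt and 0.384 for Twnk. Signs changed for values near 0, and the cause was not tested. Gtpbp3 was at 0.0219 with the replicate block, 0.0252 in male-labelled libraries alone, 0.157 with the macrophage covariate and 0.00395 with 13 libraries and the male-labelled ones kept. Tfam was at 0.0105 with the replicate block, 0.0317 in female-labelled libraries alone, 0.00457 with the macrophage covariate and 0.00242 with 13 libraries and the male-labelled ones kept. Polrmt was at 0.00785 in male-labelled libraries alone, Polg at 0.0525 in female-labelled libraries alone, and Twnk at -0.0460 and -0.0935 with 13 libraries. Leaving out 1 library gave -0.363 to -0.135 for Trmu (the latter without TauT+/+ male 4), -0.234 to -0.0928 for Nsun3, -0.205 to -0.0304 for Polrmt (the latter without TauT+/+ female 3), -0.0684 to 0.0382 for Gtpbp3, -0.0658 to 0.0468 for Tfam, -0.0642 to 0.00840 for Polg and -0.102 to 0.195 for Twnk, whose sign turned only without TauT-/- female 1.

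The calls over all genes were 94 higher and 129 lower. They were 952 and 1139 with DESeq2, 32 and 42 without a filter, 195 and 276 without the sex term, 57 and 75 with the replicate block, 2 and 0 or 7 and 0 with 13 libraries, keeping the female-labelled or the male-labelled partners, and 0 and 0 in each sex label alone, with the macrophage covariate and with 12 libraries. Leaving out 1 library gave 8 to 476 higher and 4 to 779 lower, the most without TauT+/+ male 3. Calls in the 7 lists were 8 higher and 5 lower with DESeq2, 0 higher and 1 lower without the sex term, and 0 to 6 higher and 0 to 3 lower without 1 library, with the most again without TauT+/+ male 3. The difference of the log2 ratio of Mto1 to Gtpbp3 was 0.241 with a pseudocount of 0.1 CPM (exact permutation p = 0.0714), 0.293 with 13 libraries and the female-labelled ones kept (exact permutation p = 0.0329), and 0.176 to 0.298 without 1 library (exact permutation p from 0.156 to 0.0204, under 0.05 without TauT+/+ male 3, TauT-/- male 1 or TauT-/- female 1). Replicate numbers did not mark a shared origin in the labels, and deviations of same-numbered libraries correlated at 0.187 to 0.622 under the male label and at -0.0396 to 0.277 under the female label, so the numbers were not taken as pairs. In male-labelled libraries all 4 numbers correlated best with their own number and in female-labelled libraries 1 of 3. Depth limits the least covered genes most, and the lowest counts in any library were 112 for Trmu, 128 for Twnk, 129 for Mto1 and 151 for Nsun3.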
